A study of Mus musculus with 8 samples.

Results

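The keratins described here are 10 genes of the tongue epithelium, taken by their gene symbols from the authors' deposited table of 15540 genes. They are the basal layer keratins Krt5, Krt14 and Krt15, the suprabasal keratins of the tongue surface Krt4, Krt13, Krt76 and Krt78, and a last set of Krt1 and Krt10, which belong to the differentiating layers of the epidermis, with the type II keratin Krt90. All 10 had a value, beside 29 other keratin genes. The KrTB+DOX group held 4 libraries from C57BL/6 mice given doxycycline at 2 mg/mL in their drinking water, and the KrTB group held 4 libraries from mice of the same kind on plain water. Both groups carried K14-rtTA, a doxycycline-dependent transactivator under the keratin 14 promoter, and TRE-FLBmi-1, a Bmi-1 construct behind the element that this transactivator binds. Doxycycline and the construct therefore cannot be told apart, since no group here had doxycycline without the transgenes. Library values were not analysed here. Each value below comes from or was computed from the authors' deposited table of limma statistics, so that library depths are unknown and no library could be plotted or left out. The keratins were chosen by symbol and layer with the deposited fold changes and p-values of this contrast in view, so these values are given as a description.

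Keratins build the intermediate filaments of epithelial cells. Each filament pairs a type I keratin with a type II keratin, and most type I genes lie in a cluster on mouse chromosome 11 and the type II genes in a cluster on chromosome 15. In stratified epithelia the basal cells make Krt5 with Krt14 and Krt15. Cells that leave the basal layer switch to other pairs, which are Krt4 with Krt13 in the tongue and oral lining and Krt1 with Krt10 in the skin. Krt76 is a suprabasal type II keratin of the palate, gum and tongue.

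Promoter sequence is shown for 4 of the keratins, to set the start of the most changed gene beside those of the abundant ones. The windows are the 250 bases before the transcription start, from RefSeq on GRCm38.p6, written 5′ to 3′ in lower case, with capitals marking matches to the motifs named below.
Krt90 (chr15:101562951-101563200, minus strand): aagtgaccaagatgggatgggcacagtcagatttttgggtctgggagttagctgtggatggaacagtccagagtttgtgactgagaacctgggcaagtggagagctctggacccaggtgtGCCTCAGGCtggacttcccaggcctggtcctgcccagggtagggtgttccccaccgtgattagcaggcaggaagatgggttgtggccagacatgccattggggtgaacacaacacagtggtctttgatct
Krt5 (chr15:101712906-101713155, minus strand): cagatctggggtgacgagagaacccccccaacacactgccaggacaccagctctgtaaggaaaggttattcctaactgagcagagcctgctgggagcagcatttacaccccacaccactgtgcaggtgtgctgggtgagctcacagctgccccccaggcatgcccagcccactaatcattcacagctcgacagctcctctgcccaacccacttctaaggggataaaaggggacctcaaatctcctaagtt
Krt13 (chr11:100121567-100121816, minus strand): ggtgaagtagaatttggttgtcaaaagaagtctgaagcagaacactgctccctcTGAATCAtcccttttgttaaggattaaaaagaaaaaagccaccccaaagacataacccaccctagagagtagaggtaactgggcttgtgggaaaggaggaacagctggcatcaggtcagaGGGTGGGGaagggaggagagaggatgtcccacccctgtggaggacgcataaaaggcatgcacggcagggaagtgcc
Krt76 (chr15:101892921-101893170, minus strand): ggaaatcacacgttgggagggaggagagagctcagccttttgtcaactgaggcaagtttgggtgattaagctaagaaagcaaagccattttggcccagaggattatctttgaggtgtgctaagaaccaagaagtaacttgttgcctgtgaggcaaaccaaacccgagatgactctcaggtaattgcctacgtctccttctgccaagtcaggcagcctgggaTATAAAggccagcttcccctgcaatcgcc
RefSeq promoter windows were matched by symbol for 7 of the 10 genes, in 8 windows of 300 bases (250 before and 50 after the start). They were searched on both strands for TGANTCA (AP-1), CCNCNCCC (Krüppel-like factors), GCCNNNGGC (AP-2) and TATAAA (a form of the TATA box). The AP-1 letters were found in the windows of 1 of the 7 genes, Krt13, and occur in 7.81% of all 32851 RefSeq windows. Beside the match shown, 2 matches, at -183 and -34, lie in a second Krt13 window that is not printed. The transcription start of that window lies 989 bases inside the gene as GENCODE annotates it. Krt90 had 1 AP-2 match, starting at position -130 (counted back from -1, the base before the start), and 16.6% of all windows have one. TATAAA starts at -29 in Krt76 and -26 in Krt10, and 13.6% of all windows hold it. The Krüppel-like letters were found in Krt13 and Krt78 and occur in 49.5% of all windows. The 4 motifs do not overlap in these windows. The Krt5 window held none of these exact letters. Variants of the motifs were not searched, so ataaaa, which stands in the printed Krt5 and Krt13 sequences, was not counted. For Krt14 the transcription start of the RefSeq window lies 1518 bases inside the gene as GENCODE annotates it. That window is not shown and is not taken as the promoter used in K14-rtTA.

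Before the keratins, Bmi1 served as the check of the labels and of the sign. The authors' deposited table lists it at 42.8 times its KrTB level in KrTB+DOX (log2 fold change 5.42, SE 0.10). Positive fold changes are therefore taken as higher in KrTB+DOX, a sign that the authors' deposited table does not state. Group levels were computed from the authors' deposited table by placing the groups evenly around the deposited mean, as the fold change requires for 4 libraries each. They are geometric means of CPM, read counts scaled to the size of each library. They are approximate, because limma's weights can differ between libraries. SE is the standard error of a log2 fold change, obtained as the fold change divided by the deposited t, and intervals are 95% confidence intervals.

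Of the 10 keratins, 3 rose and 0 fell in KrTB+DOX at an adjusted p under 0.05 per the authors' deposited table (limma, Benjamini-Hochberg over all genes). Of all genes 8.13% passed this threshold, made up of 3.82% that were higher and 4.31% that were lower. The risers were Krt90, Krt1 and Krt15. At an unadjusted p under 0.05, 5 of the 10 passed per the authors' deposited table, with Krt14 and Krt5 added. At that threshold 3923 of all 15540 genes passed too. The median log2 fold change of the 10 keratins was 0.23, against -0.01 over all genes, per the authors' deposited table. Their abundances differ widely, from Krt13 and Krt4, ranked 3 and 4 among all genes by mean level, to a pair of genes near 1 CPM in KrTB. Since RNA of the epithelium was sequenced in bulk, fewer cells of a kind and less RNA per cell cannot be told apart.

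**Figure D1:**
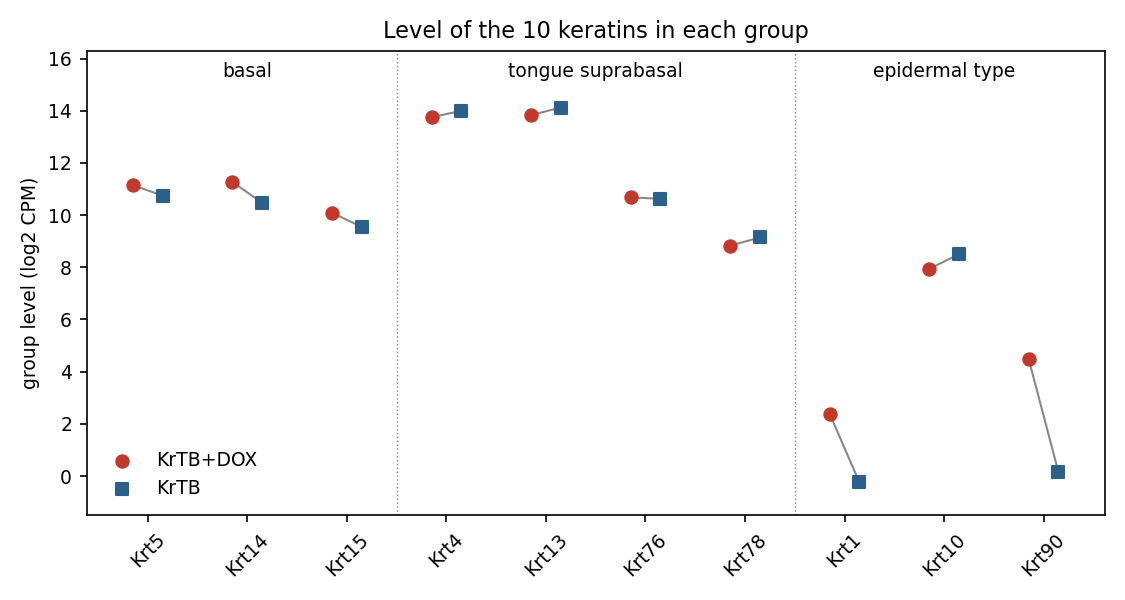
Level of each of the 10 keratins in log2 CPM, with KrTB+DOX as red circles and KrTB as blue squares, computed from the authors' deposited mean and fold change (4 libraries per group; values per library were not analysed). Krt4 and Krt13 sit highest in both groups, and Krt1 and Krt90 are the ones with steep lines.

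The 3 basal keratins lay above 0, by 0.40 to 0.80 on the log2 scale, and 1 of them passed the test. Krt15, a type I keratin of basal cells, had 1089 CPM in KrTB+DOX and 749 CPM in KrTB, computed from the authors' deposited table. It rose 1.45-fold (log2 fold change 0.54, adjusted p = 0.0452, SE 0.14) per the authors' deposited table. This call was the closest to the threshold among the 10 keratins and was lost when tested against a 1.2-fold change (adjusted p = 0.521) or with the Benjamini-Yekutieli adjustment (adjusted p = 0.463). Krt14, the basal type I keratin for which K14-rtTA is named, had 2470 CPM in KrTB+DOX and 1415 CPM in KrTB, computed from the authors' deposited table. Its log2 fold change was 0.80 (adjusted p = 0.11, SE 0.28, interval 0.17 to 1.44) per the authors' deposited table. The point estimate of Krt14 was larger than that of Krt15, but its SE was larger too, and a change of 1.06 would have been needed to pass. Krt5, the type II partner of both, had 2268 CPM in KrTB+DOX and 1715 CPM in KrTB, computed from the authors' deposited table. Its log2 fold change was 0.40 (adjusted p = 0.181, SE 0.17, interval 0.02 to 0.79) per the authors' deposited table. The intervals of Krt5 and Krt15 exclude a 2-fold change, while that of Krt14 does not.

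Krt14 and Krt5 share sequence with stress keratins, which bears on what their values hold. Of the 51-base windows of the Krt14 transcripts, 13.4% also occur in Krt16 or Krt17, and 8.43% of those of Krt5 occur in Krt6a, Krt6b or 2 further genes, on the same strand. The longest run that Krt14 shares with Krt16 is 134 coding bases in 1 exon (GRCm38 chr11:100207017-100207150, minus strand). It is printed in full in lower case, from GENCODE M21 transcripts, because a 51-base read inside it has no base by which to choose a gene, unless its mate lies outside the run.
Krt14 and Krt16: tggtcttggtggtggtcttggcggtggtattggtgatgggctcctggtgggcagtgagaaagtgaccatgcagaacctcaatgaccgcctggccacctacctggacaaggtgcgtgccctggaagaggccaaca
The same-strand share was 0.524% for Krt15 (with Krt25) and 0.221% for Krt76 (with Krt6a and Krt6b), and 0 windows were shared for Krt4, Krt13, Krt78, Krt1, Krt10 and Krt90. The log2 fold changes of the stress keratins were 1.04 for Krt16 (adjusted p = 0.124, SE 0.38), 1.72 for Krt17 (adjusted p = 0.0413, SE 0.44), 0.79 for Krt6a (adjusted p = 0.0927, SE 0.26) and 1.09 for Krt6b (adjusted p = 0.073, SE 0.33) per the authors' deposited table. Each of these point estimates was above that of the basal keratin with which the gene shares sequence, and these differences were not tested. The sources used here do not give how reads common to several genes were counted, and their part in the values of Krt14 and Krt5 was not tested.

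None of the 4 suprabasal keratins of the tongue passed the test, and the intervals of all 4 hold 0 and exclude a 2-fold change. Krt13, the type I keratin of the oral and tongue surface, had 14629 CPM in KrTB+DOX and 17837 CPM in KrTB, computed from the authors' deposited table. Its log2 fold change was -0.29 (adjusted p = 0.228, SE 0.14, interval -0.59 to 0.02) per the authors' deposited table. Krt4, its type II partner, had 13789 CPM in KrTB+DOX and 16371 CPM in KrTB, computed from the authors' deposited table. Its log2 fold change was -0.25 (adjusted p = 0.328, SE 0.15, interval -0.58 to 0.08) per the authors' deposited table. Krt76 had 1641 CPM in KrTB+DOX and 1582 CPM in KrTB, computed from the authors' deposited table. It was the keratin nearest to 0 of the 10, with a log2 fold change of 0.05 (adjusted p = 0.897, SE 0.20, interval -0.39 to 0.49) per the authors' deposited table. Krt78, a type II keratin of stratified epithelia, had 454 CPM in KrTB+DOX and 566 CPM in KrTB, computed from the authors' deposited table. Its log2 fold change was -0.32 (adjusted p = 0.232, SE 0.16, interval -0.67 to 0.03) per the authors' deposited table. Changes of 0.51 for Krt13, 0.55 for Krt4, 0.58 for Krt78 and 0.73 for Krt76 would have passed at their SEs, and smaller ones would not.

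The last set held the 2 largest increases among all keratins and, with Krt10, the lowest value of the 10. Krt90 had 22.5 CPM in KrTB+DOX and 1.11 CPM in KrTB, computed from the authors' deposited table. It rose 20.3-fold (log2 fold change 4.34, adjusted p = 7.1e-04, SE 0.38) per the authors' deposited table, with an interval from 11.3-fold to 36.5-fold. Among all genes this fold change ranked 4 in size among increases, and its p ranked 12. Krt1, the type II keratin of the epidermal spinous layer, had 5.26 CPM in KrTB+DOX and 0.843 CPM in KrTB, computed from the authors' deposited table. It rose 6.24-fold (log2 fold change 2.64, adjusted p = 0.00163, SE 0.29) per the authors' deposited table, with an interval from 3.97-fold to 9.82-fold. Krt90 and Krt1 kept their calls under each of the 5 alternative settings tried. Both were near 1 CPM in KrTB, where the size of a fitted fold change depends on how counts near 0 were treated.

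Krt10, the type I partner of Krt1 in the epidermis, did not follow it. It had 245 CPM in KrTB+DOX and 362 CPM in KrTB, computed from the authors' deposited table. Its log2 fold change was -0.56 (adjusted p = 0.288, SE 0.31, interval -1.26 to 0.13) per the authors' deposited table. The intervals of Krt1 and Krt10 do not overlap, and their difference was not tested because the authors' deposited table holds no covariance between genes. An antisense gene, Gm11940, overlaps Krt10 and had a log2 fold change of -0.05 (SE 0.23, mean -0.77 log2 CPM) per the authors' deposited table. Small RNA genes on the opposite strand overlap Krt90, Krt5 and Krt76, and the authors' deposited table lists none of these 3.

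**Figure D2:**
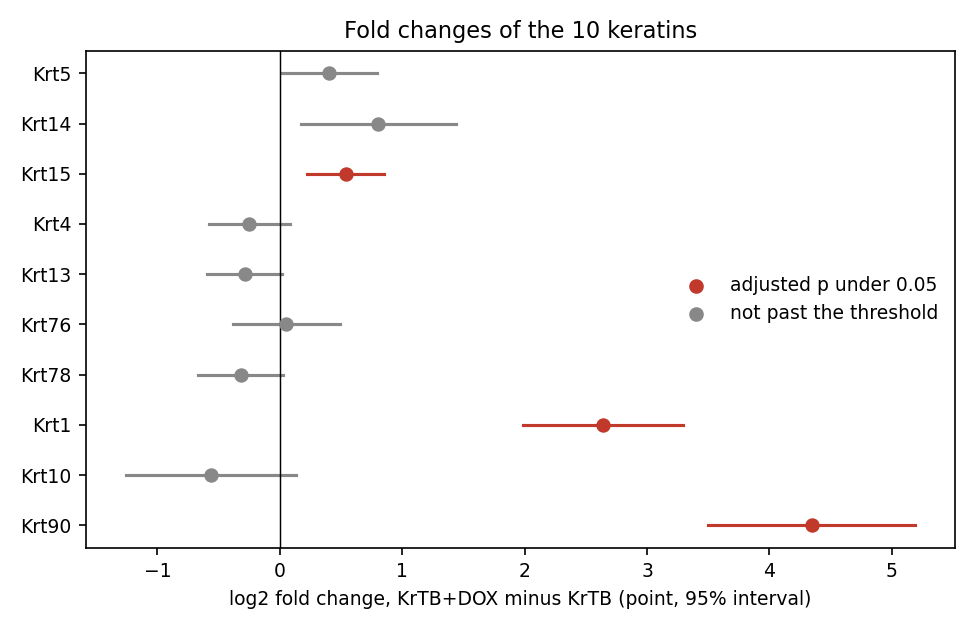
Log2 fold change of each of the 10 keratins, KrTB+DOX minus KrTB, with 95% intervals computed from the authors' deposited table; red marks an adjusted p under 0.05. The 3 basal keratins lie right of 0, the 4 suprabasal keratins lie within 1 unit of 0, and Krt1 and Krt90 lie beyond 2.

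The order of the keratins by level per length was compared after dividing by the longest annotated transcript. On the scale of log2 CPM per kilobase, levels in KrTB+DOX ran from Krt13 (13.11) and Krt4 (12.66) through Krt14 (10.51), Krt5 (10.01), Krt76 (9.47) and Krt15 (9.32) to Krt78 (7.04), Krt10 (6.87), Krt90 (3.15) and Krt1 (0.75). The same levels in KrTB were 13.40 for Krt13, 12.91 for Krt4, 9.70 for Krt14, 9.61 for Krt5, 9.42 for Krt76, 8.78 for Krt15, 7.44 for Krt10, 7.36 for Krt78, -1.19 for Krt90 and -1.89 for Krt1. With this length the order was the same in both groups apart from Krt78 and Krt10, which changed places. With the mean length of a gene's annotated transcripts, Krt10 stood above Krt78 in both groups, at 7.53 against 7.04 in KrTB+DOX and at 8.10 against 7.36 in KrTB. Krt15 and Krt76 then changed places, with Krt15 at 9.83 and Krt76 at 9.47 in KrTB+DOX, and Krt15 at 9.29 and Krt76 at 9.42 in KrTB. Errors of levels cannot be had from the authors' deposited table, so neighbours in this order, such as Krt14 and Krt5 in KrTB, are not shown to differ.

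Summed per kilobase over the 39 keratins with a value, Krt4 and Krt13 made up 63.2% of keratin RNA in KrTB+DOX and 73.8% in KrTB. The 3 basal keratins made up 12.9% in KrTB+DOX and 8.21% in KrTB. Krt1 with Krt90 made up 0.0436% in KrTB+DOX and 0.00282% in KrTB, so that the largest fold changes belonged to a very small part of the keratin RNA. The 10 keratins together made up 80.1% in KrTB+DOX and 86.1% in KrTB. With the mean length of a gene's annotated transcripts in place of the longest, Krt4 and Krt13 made up 71.7% in KrTB+DOX and 80.3% in KrTB. The basal keratins then made up 10.6% in KrTB+DOX and 6.41% in KrTB. These shares have no error or test, since library values were not analysed here.

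Partner types were then set against each other. Type I keratins summed to 1.26 times the type II keratins per kilobase, in KrTB+DOX as in KrTB. Krt13 stood at 1.37 times Krt4 in KrTB+DOX and at 1.41 times in KrTB. Krt14 stood at 1.41 times Krt5 in KrTB+DOX and at 1.07 times in KrTB. The skin pair was far from balance in both groups, with Krt10 at 69.7 times Krt1 in KrTB+DOX and 643 times in KrTB. Krt76 exceeded Krt10 6.06-fold in KrTB+DOX and 3.95-fold in KrTB. These ratios are descriptions of group levels computed from the authors' deposited table, with no test. With the mean length of a gene's annotated transcripts in place of the longest, the type I to type II ratio was 2.16 in KrTB+DOX and 2.30 in KrTB. Krt13 then stood at 2.86 times Krt4 in KrTB+DOX and at 2.94 times in KrTB. Krt14 stood at 1.70 times Krt5 in KrTB+DOX and at 1.29 times in KrTB with this length. Krt76 stood at 3.84 times Krt10 in KrTB+DOX and at 2.5 times in KrTB.

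**Figure D3:**
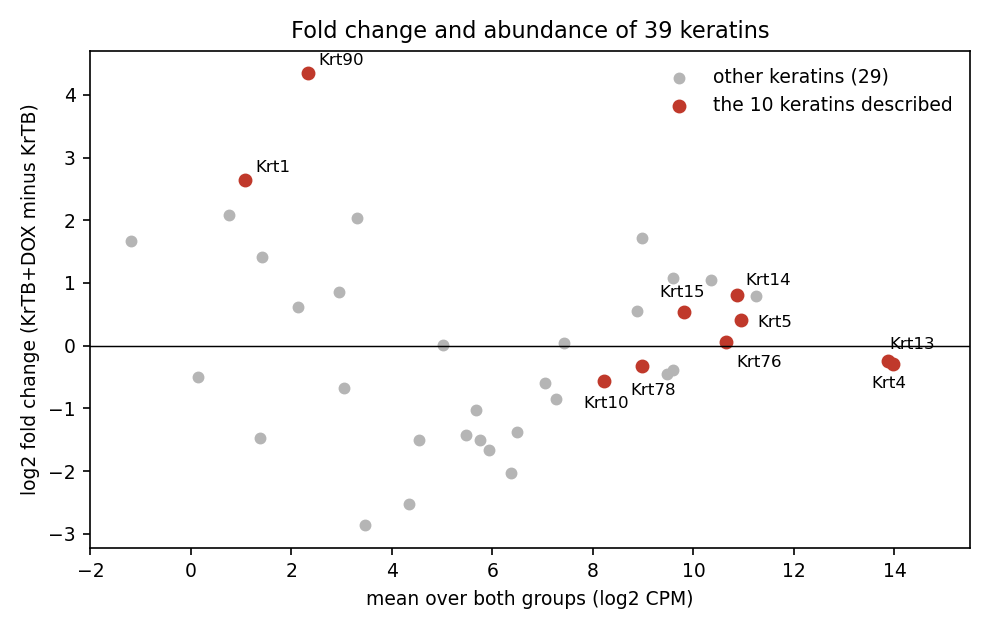
Mean over both groups in log2 CPM against the log2 fold change, KrTB+DOX minus KrTB, for the 39 keratins of the authors' deposited table, with the 10 keratins described in red and named. The 2 large increases, Krt90 and Krt1, stand at means of 2.32 and 1.07, while the other 8 of the 10 lie within 1 unit of 0.

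By GENCODE M21 on GRCm38, with every gene on the minus strand, the type II keratins Krt5 (chr15:101707070-101712898), Krt76 (chr15:101884351-101892920), Krt4 (chr15:101918535-101924735) and Krt78 (chr15:101946001-101954287) lie on chromosome 15. The type I keratins Krt10 (chr11:99385254-99389364), Krt13 (chr11:100117327-100121566), Krt15 (chr11:100131758-100135928) and Krt14 (chr11:100203162-100207548) lie on chromosome 11. Krt90 (chr15:101552356-101562950 on GRCm38, minus strand) lies 1688 bases from Krt82 and 394 bases from Krt75. The log2 fold change of the hair keratin Krt82 was -0.49 (adjusted p = 0.674, SE 0.65) and that of the hair follicle keratin Krt75 was 0.62 (adjusted p = 0.275, SE 0.33) per the authors' deposited table. Krt1 (chr15:101845426-101850794, minus strand) has Krt5 and Krt76 as its nearest neighbours with a value. Between Krt4 and Krt78, neither of which passed, Krt79 rose with a log2 fold change of 2.03 (adjusted p = 0.0214, SE 0.42) per the authors' deposited table. Krt78 has Krt8 on its other side, a keratin of simple epithelia, which rose by 1.68 (adjusted p = 0.0454, SE 0.44) on the log2 scale per the authors' deposited table at a mean of -1.19 log2 CPM. Krt18, the type I partner of Krt8, is the next keratin with a value and rose too (log2 fold change 2.09, adjusted p = 0.0023, SE 0.25) per the authors' deposited table.

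On chromosome 11, from Krt15 to the end of the cluster, Krt15, Krt19, Krt14, Krt16, Krt17 and Krt42 were above 0, and Krt15 and Krt17 passed the test. Krt19, a keratin of simple and basal epithelia between Krt15 and Krt14, had a log2 fold change of 0.86 (adjusted p = 0.369, SE 0.56) per the authors' deposited table. On the other side, Krt13 had the hair type keratin Krt36 as its neighbour, with -0.39 (adjusted p = 0.611, SE 0.43) as its log2 fold change per the authors' deposited table. Krt10 lay between Krt24 (log2 fold change 0.05, adjusted p = 0.944, SE 0.31) and Krt23 (-0.60, adjusted p = 0.0936, SE 0.20) per the authors' deposited table. Of the 29 other keratins 5 rose and 1 fell, beside 3.82% higher and 4.31% lower among all genes. Their median log2 fold change was -0.46 per the authors' deposited table.

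**Figure D4:**
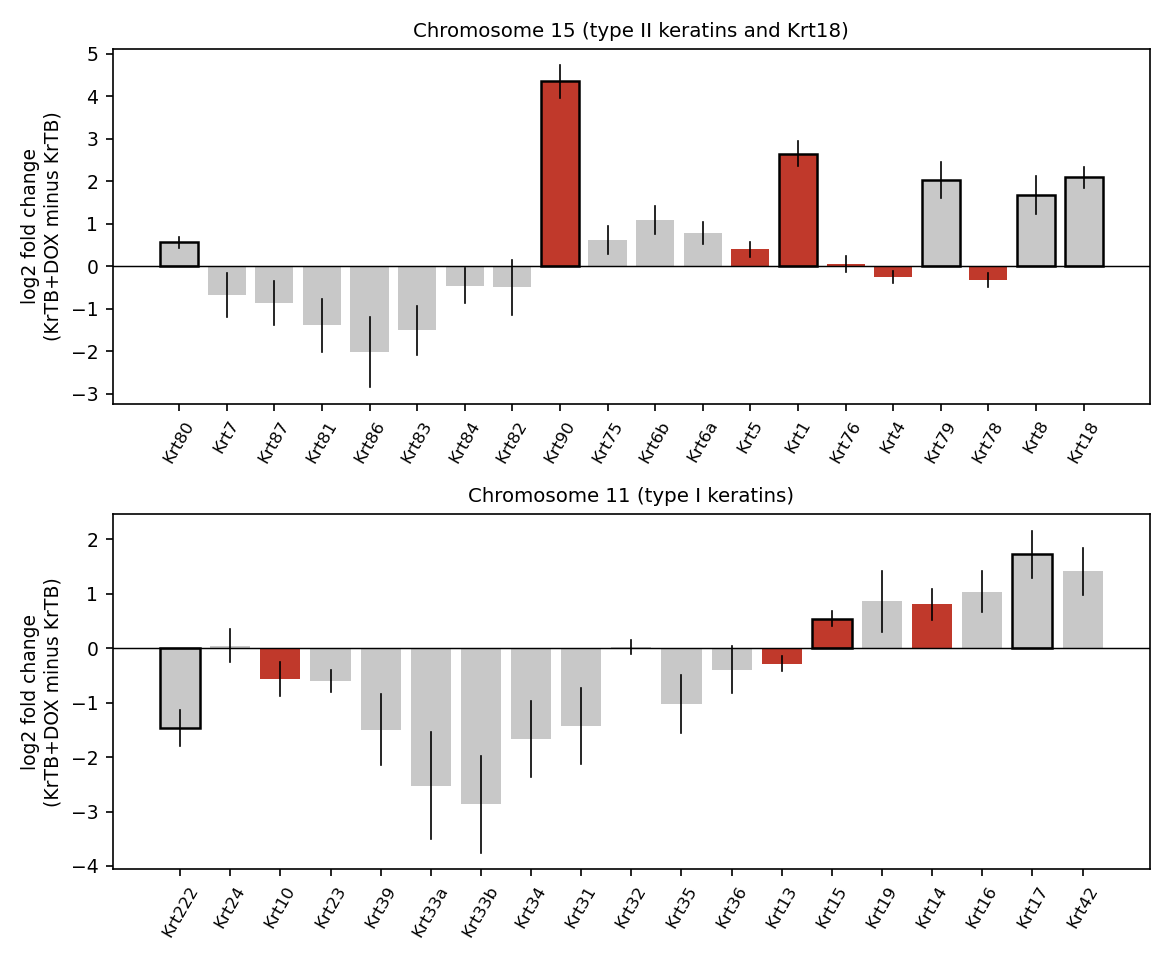
Log2 fold change, KrTB+DOX minus KrTB, of the keratin genes with a value in genome order on chromosomes 15 and 11, from the authors' deposited table. Red bars are the 10 keratins described, black outlines mark an adjusted p under 0.05 and lines show 1 SE to either side; Krt90 and Krt1 stand above neighbours that did not pass.

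Other genes of the layers these keratins mark were counted per the authors' deposited table, beside 593 genes higher and 670 lower among all 15540. The lists were chosen with earlier results of these data known. Their counts therefore describe the listed genes and are not read as a result about a layer. Of 21 other basal layer genes 5 rose and 0 fell, with a median log2 fold change of 0.15 per the authors' deposited table. They were the basal transcription factor Trp63 (0.78, SE 0.16), the laminin receptor subunit Itga3 (0.63, SE 0.08), the P-cadherin gene Cdh3 (0.83, SE 0.14), the ligand Wnt10a (0.73, SE 0.18) and the growth factor binding protein Igfbp2 (1.02, SE 0.20) per the authors' deposited table. Of 25 other suprabasal genes of oral epithelium 0 rose and 6 fell, with a median of -0.12 per the authors' deposited table. They were the membrane proteins Emp1 (log2 fold change -1.34, SE 0.19) and Mal (-1.67, SE 0.39), the matrix protein Ecm1 (-0.70, SE 0.11), the calmodulin-like Calml3 (-0.56, SE 0.12) and the cornified envelope precursors Sprr3 (-2.19, SE 0.43) and Sprr1a (-1.37, SE 0.35) per the authors' deposited table. Krt4 and Krt13, the keratins of the same layers, did not pass. Of the 25 suprabasal genes 11 lay above 0, and of the 21 basal genes 16 did. Tgm1, on the suprabasal list, had a log2 fold change of 0.47 (adjusted p = 0.0718, SE 0.14) per the authors' deposited table. Of 32 other epidermal differentiation genes 4 rose and 0 fell, with a median of 0.16 per the authors' deposited table. They were the protease Klk7 (log2 fold change 1.09, SE 0.14), the epidermal caspase Casp14 (1.13, SE 0.17) and the cornified envelope genes Lce3d (2.30-fold, SE 0.24 on the log2 scale) and Lce1m (2.16, SE 0.45) per the authors' deposited table.

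Partners and regulators of keratins were counted in the same way. Of 26 genes for plakins, desmosome anchors and other filament partners 1 rose and 2 fell, with a median log2 fold change of 0.12 per the authors' deposited table. The desmosomal cadherin Dsg2 rose (0.64, SE 0.16) while its relative Dsc2 (-0.58, SE 0.15) and the plakin Evpl (-0.40, SE 0.08) fell per the authors' deposited table. Of 36 regulators of keratin genes 2 rose and 1 fell, with a median of -0.00033 per the authors' deposited table. The 3 of 26 and 3 of 36 that passed stand beside 8.13% of all genes, and nothing is read from these counts. The transcription factor Sox9 rose 6.58-fold (log2 fold change 2.72, SE 0.25) and Trp63 rose, whereas Sox2, a progenitor factor, fell by 0.64 (SE 0.11) on the log2 scale per the authors' deposited table. The regulators Trp63 and Sox9 rose beside Krt15, and any link between them was not tested. Over the 135 genes of these 5 lists together 11 rose and 9 fell, with Trp63, which stands in 2 lists, counted once. Of all genes 3.82% were higher and 4.31% lower. Tested against a 1.2-fold change, 4 of the listed genes rose and 1 fell, and the share of all genes passing that test is not given here.

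Markers of other tissues were present and moved in part with the comparison. Their counts stand beside 3.82% of all genes that were higher and 4.31% that were lower. Of 8 skeletal muscle markers 0 passed, all 8 lay below 0, and their summed levels were 32756 CPM in KrTB+DOX and 38850 CPM in KrTB, while the 10 keratins summed to 36613 CPM in KrTB+DOX and 40599 CPM in KrTB. Of 7 fibroblast markers 0 rose and 4 fell, with sums of 1393 CPM in KrTB+DOX and 2826 CPM in KrTB. Of 5 endothelial markers 1 fell, of 5 immune markers with a value 0 passed, and of 6 epithelial markers 1, Epcam, rose (log2 fold change 0.75, SE 0.19), with 3 of the 6 above 0, per the authors' deposited table. The epithelial list also holds Krt4, Krt5, Krt13 and Krt14, described above, and Cdh1. Of the taste cell markers the keratins Krt8 and Krt18 rose and the other 4 with a value did not pass. The melanocyte, salivary gland and Merkel cell lists had 2, 1 and 1 markers with a value, and 0 of these passed. The part of these tissues in the keratin values was not tested.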

How the data were processed

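Poly(A)-selected stranded libraries of tongue epithelium RNA were sequenced as pairs of 51-base reads, per the labels' protocols. GRCm38, STAR 2.5.2b, HTSeq 0.11.2, cutadapt and bcl2fastq 2.20 stand in the submitters' processing notes, without roles or settings. The authors deposited, per the file headers, limma's log2 fold change, mean log2 expression (log2 CPM, since 2 raised to it sums to 985251), t score, p-value and Benjamini-Hochberg adjusted p-value. Their table has 15540 genes and 0 columns per library. The limma version, model and low-count filter are not stated in these sources. The log odds score, deposited by the authors, differed by up to 1.57 between genes of nearly equal t (within 0.001). Such differences can arise where limma's weights differ from gene to gene.

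From this table the total degrees of freedom (9.76) were solved from t and p. SEs, intervals, group levels and the tests of the alternatives followed, in Python 3.11.15 with scipy 1.17.1. The degrees of freedom, SEs, adjustments of p and the 1.2-fold test were run on simulated data, where the SE check holds by construction. Intervals, group levels, centring and trend removal were not run on simulated data. Positions and lengths came from GENCODE M21 on GRCm38. The count models planned for values per library could not be used. The 10 keratins and all gene lists were chosen with earlier results of these data known. Named genes are these keratins, their neighbours, and each listed gene that was called. The series' design text calls the libraries biological replicates, and the animals behind them are not described.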

Additional observations from a re-analysis of the deposited data

How the results depend on the processing

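The alternatives were adjusting p without genes whose mean lay under 1 log2 CPM, testing against a 1.2-fold change, centring on the median of all genes, removing a trend on mean expression, and Benjamini-Yekutieli adjustment. Of these 5, centring and removing the trend alter the fold changes, and the 10 keratins kept their direction under both; the others alter p-values only. Calls of 2 keratins, Krt90 and Krt1, held in all 5, with adjusted p up to 0.00728 and 0.0167. All 5 reuse the deposited errors or p-values, and none alters how counts near 0 were treated. Krt1, at a mean of 1.07 log2 CPM, lay just above the cut of 1 log2 CPM. Krt15 lost its call under the 1.2-fold test and under Benjamini-Yekutieli adjustment, which by construction are stricter. Over the 135 genes of the 5 gene lists without the 10 keratins, 11 rose and 9 fell, beside 3.82% higher and 4.31% lower among all genes. These counts were 4 and 1 against a 1.2-fold change, and 3 and 1 with Benjamini-Yekutieli adjustment. Against a 1.2-fold change, the basal genes that rose went from 5 to 1. The suprabasal genes that fell went from 6 to 1, and the epidermal genes that rose from 4 to 2. With Benjamini-Yekutieli adjustment each of these 3 list counts was 1. The shares of all genes passing these stricter settings are not given here, so nothing is read from the counts. The ratio of type I to type II keratins was 1.32 in KrTB+DOX and 1.31 in KrTB over the 10 keratins alone. With the mean length over annotated transcripts it was 2.16 in KrTB+DOX and 2.30 in KrTB, and with the longest protein-coding transcript, chosen after seeing the data, 1.25 in KrTB+DOX and 1.26 in KrTB. No paired analysis was possible because the table holds no values per library, and for the same reason no library could be left out. Depth per library is unknown.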
